A study of Mus musculus with 3 samples.

Results

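Lcn2-positive Müller glia were taken as the cells of Cluster 0 in which at least 1 unique molecular identifier (UMI, a tag that counts 1 captured transcript) of Lcn2 was found. They numbered 962 of the 4770 cells of Cluster 0, in a data set of 15242 mouse retinal cells. The other 3808 cells of Cluster 0 held no Lcn2 UMI and served as the comparison. The cells were thus chosen by their measured Lcn2 UMIs, so their Lcn2 values describe that choice, and Lcn2 was left out of every profile.

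Dissociated retinal cells of 3 groups of mice aged 8 weeks, all reared in darkness, were profiled by droplet single-cell RNA-seq, with 1 pooled library for each group. The libraries held 4478 cells and 18882951 UMIs in WT, 5952 and 37002532 in rd10-vehicle, and 4812 and 29192530 in rd10-TMB. WT was an untreated C57BL/6J library from both sexes. The rd10-vehicle library came from female rd10 mice, which carry a mutation of the rod phosphodiesterase gene Pde6b and lose their rods, on base chow, and the rd10-TMB library from female rd10 mice given chow with tamsulosin, metoprolol and bromocriptine for about 1 month. Sex thus differed between WT and the rd10 libraries and cannot be told apart from genotype, and with 1 library per group no comparison below has a replicate check.

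Müller glia span the retina and keep its neurons supplied and its extracellular fluid in balance. They clear glutamate and turn it into glutamine with glutamine synthetase (Glul), recycle cone chromophore with the help of the retinaldehyde-binding protein Rlbp1, and buffer potassium and water. After injury they become reactive, a state known for the intermediate filament protein Gfap. Lcn2 encodes lipocalin-2, a small secreted protein that binds iron-loaded siderophores and that is produced by reactive glia and in the acute-phase response, where signals through STAT3, NF-kB and C/EBP factors are known to act.

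Lcn2 was found in 653 of 2492 Cluster 0 cells of rd10-vehicle (26.2%, 95% Clopper-Pearson interval 24.5 to 28.0) and in 300 of 1748 of rd10-TMB (17.2%, 15.4 to 19). In WT it was found in 9 of 530 cells (1.70%, 0.779 to 3.2). All intervals given here cover counting error only, since mice were pooled before capture. With each cell thinned to 3000 UMIs, and 109 rd10-vehicle, 130 rd10-TMB and 68 WT cells left out as shallower, the shares were 18.6%, 11.9% and 1.73%. Thinning left rd10-vehicle highest and WT lowest.

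The amount of Lcn2 per cell was highly uneven. The median positive cell held 5 Lcn2 UMIs in rd10-vehicle, 4 in rd10-TMB and 11 in WT, and the highest held 632, 299 and 45. In rd10-vehicle the top 65 cells by Lcn2 (10% of the positive cells) held 59.7% of the 12105 Lcn2 UMIs of Cluster 0, and in rd10-TMB the top 30 cells held 64.5% of 5157. The 9 WT cells held 1, 1, 2, 6, 11, 13, 26, 27 and 45 UMIs.

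**Figure D1:**
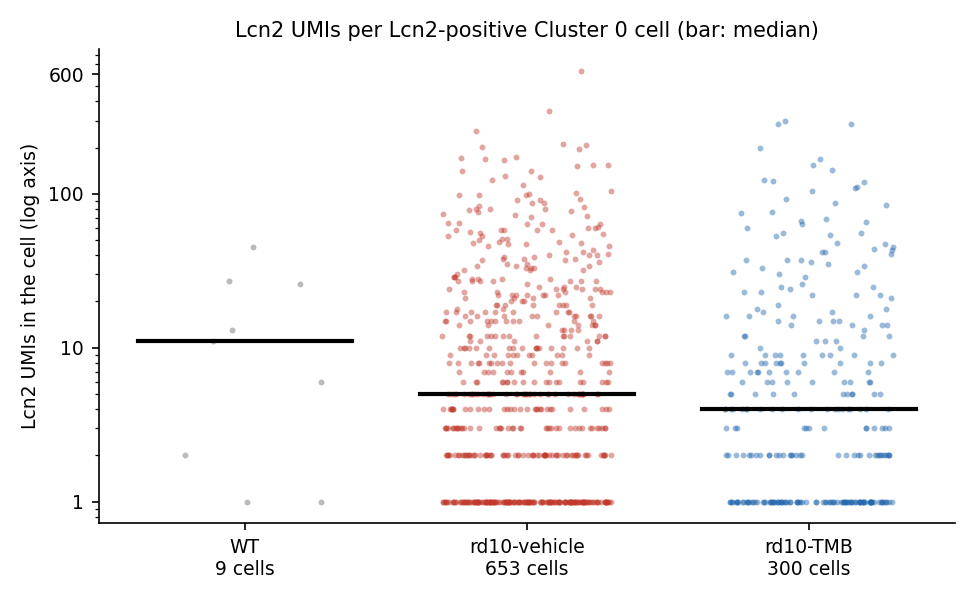
Lcn2 UMIs in each Lcn2-positive Cluster 0 cell (log axis) in WT, rd10-vehicle and rd10-TMB, with 1 point per cell and a bar at the median. The medians are 11, 5 and 4 UMIs, and single cells reach 632 UMIs in rd10-vehicle and 299 in rd10-TMB.

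Free RNA in the droplets can give a cell UMIs of genes it does not express, so Lcn2 was also counted in neurons of clusters 1, 2 and 3, which carried rod or bipolar cell markers. There it was found in 22 of 1786 cells of rd10-vehicle (1.23%), 29 of 1791 of rd10-TMB (1.62%) and 7 of 1971 of WT (0.355%), at median depths of 2905.5, 2827 and 1670 UMIs. At the depth of the Cluster 0 cells the same Lcn2 level would give 4.07% of cells in rd10-vehicle, 5.45% in rd10-TMB and 0.902% in WT, which is 101, 95.2 and 4.78 cells. Cells with exactly 1 Lcn2 UMI numbered 177, 99 and 2 in the same order, so in rd10-TMB that class was no larger than about this level. Cluster 4, where 10 of 10 cone markers were enriched, stood higher in rd10-vehicle, with Lcn2 in 42 of 542 cells (7.75%, 5.64 to 10.3) at a median depth of 4857 UMIs, against 6 of 412 in rd10-TMB (1.46%) and 8 of 278 in WT (2.88%). Lcn2 there was at 17.5, 2.76 and 5.61 CPM, against 545 CPM in Cluster 0 of rd10-vehicle, and whether it was free RNA was not tested. With 2 or more UMIs required, 19.1% of Cluster 0 cells in rd10-vehicle and 11.5% in rd10-TMB were positive.

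Cluster 0 held 95.3% of all Lcn2 UMIs of the rd10-vehicle library, 96.5% of rd10-TMB and 62.3% of WT. Outside it, Lcn2 was found in 37 of 88 cells of cluster 12 in rd10-vehicle and 12 of 33 in rd10-TMB, where 6 of 12 astrocyte markers were enriched. It was also found in 11 of 23 and 4 of 6 cells of cluster 18, which was left unnamed, and in 18 of 156 and 7 of 100 cells of cluster 11, where endothelial and pericyte markers were enriched.

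The name of the cells was checked against markers of Müller glia. In Cluster 0, 20 of 20 Müller glia markers had at least 2-fold the level of the remaining cells, and 5 of them stood among its top 10 genes by fold. Glul was found in 653 of 653 Lcn2-positive cells of rd10-vehicle and 300 of 300 of rd10-TMB, at median depths of 10153 and 11722 UMIs. In Cluster 2, where bipolar cell markers were enriched, Glul was found in 32.5% and 29.4% of cells, at median depths of 3638 and 4310 UMIs. The summed level of the 20 markers was 55911 UMIs per 1000000 UMIs (CPM) in Lcn2-positive cells of rd10-vehicle and 53338 in rd10-TMB.

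For the profile, each Lcn2-positive cell was paired with an Lcn2-negative Cluster 0 cell of the same library and nearly the same total UMI count. The median depth was 10153 UMIs in positive and 9971 in paired negative cells of rd10-vehicle, 11722 and 11714.5 in rd10-TMB, and 10475 and 10636 in WT. Without pairing, negative cells were shallower, with medians of 8175, 9064.5 and 6271 UMIs. Pairing ran from the deepest positive cell down and used no negative cell again. Of the pairs, 195 of 653 in rd10-vehicle and 70 of 300 in rd10-TMB differed by more than 10%. The share of mitochondrial UMIs was 5.86% against 6.37% in rd10-vehicle and 6.01% against 6.70% in rd10-TMB. Of the 962 positive cells, 5 had a barcode that also occurred in another library, among 25 such barcodes in the data set.

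Rod and cone transcripts moved with Lcn2. The median cell held 1096 CPM of rod and cone marker UMIs when Lcn2-positive and 523 when paired negative in rd10-vehicle, and 1133 against 758 in rd10-TMB. Therefore the profile was also computed in cells at or below the median share of these UMIs in their library, an alternative chosen after the data were seen, and its values stand beside the counts and the main genes.

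Summed over cells, 229 of 11347 genes compared in rd10-vehicle were 2-fold or more higher in Lcn2-positive than in paired negative cells (2.02%) and 44 were 2-fold or more lower (0.388%). In rd10-TMB, 218 of 10035 genes were higher by that limit (2.17%) and 63 lower (0.628%). Of 10029 genes compared in both libraries, 107 were higher in both (1.07%) and 14 lower in both (0.14%). These counts moved with depth matching and with photoreceptor UMIs. In pairs within 10% of depth, also an alternative chosen after the data were seen, 107 genes were higher in rd10-vehicle, 81 in rd10-TMB and 32 in both, and in cells with few photoreceptor UMIs 89, 77 and 29. Fewer cells and UMIs entered both settings, so fewer genes could be compared. A gene was compared when it had 50 or more UMIs over both sets and a UMI in 10 or more cells. Over all genes compared, the median log2 ratio lay at 0.02 for rd10-vehicle and at 0.03 for rd10-TMB.

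**Figure D2:**
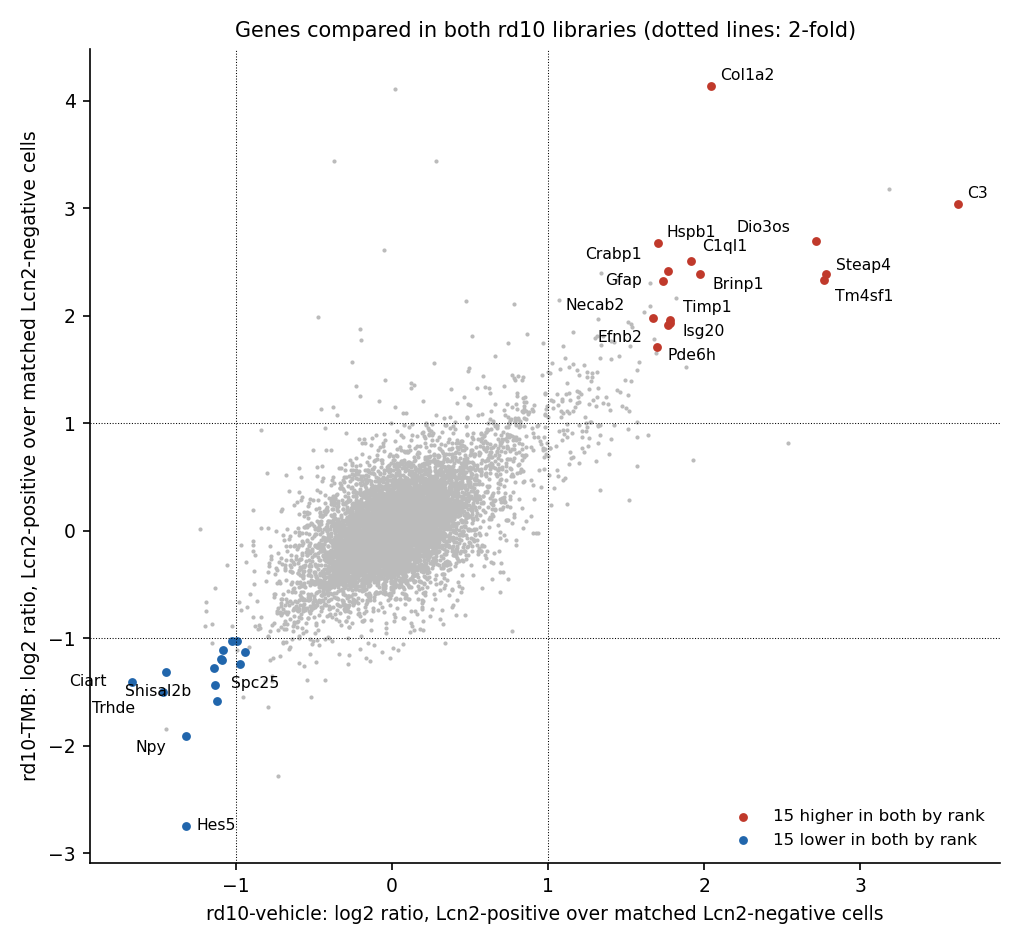
Log2 ratio of Lcn2-positive over depth-paired Lcn2-negative Cluster 0 cells for each gene compared in both rd10 libraries, with rd10-vehicle on the x axis and rd10-TMB on the y axis, dotted lines at 2-fold, and the 15 highest and 15 lowest ranked genes in colour. C3 lies at 3.63 and 3.04, and Hes5 at -1.32 and -2.75.

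The gene with the highest rank was C3, the central component of the complement cascade. In rd10-vehicle 638 C3 UMIs in 159 of 653 positive cells stood against 43 in 24 of 653 paired cells, and in rd10-TMB 233 in 59 of 300 cells against 24 in 12. That is 85.7 against 6.79 CPM and 57.4 against 6.72 CPM, a log2 ratio of 3.63 (95% interval 3.21 to 4.14) and of 3.04 (2.49 to 3.77). Lcn2-positive cells thus held 91.5% of all C3 UMIs of Cluster 0 in rd10-vehicle and 84.7% in rd10-TMB, while they held 33.6% and 24.2% of its UMIs of all genes. C3 (chr17:57203967-57228136 in GRCm38) differed from C4b, a component of the upstream classical pathway, whose UMIs were shared more evenly, with 34.3% and 33.1% in positive cells and log2 ratios of 0.04 (-0.07 to 0.14) and 0.52 (0.34 to 0.70).

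Other complement genes with enough UMIs were also higher or level. Of the 7 complement genes compared in rd10-vehicle 2 were 2-fold or more higher, and of 5 in rd10-TMB 2, with medians of 0.76 and 0.81. Cfb, a protease of the alternative pathway, was at 8.06 against 2.84 CPM in rd10-vehicle (60 against 18 UMIs) and, below the limit for comparison, at 25 against 8 UMIs in rd10-TMB. Serping1, the inhibitor of the C1 protease, was at 319 against 188 CPM (log2 ratio 0.76) and 278 against 135 CPM (1.04). C1qa, made by microglia, was close to absent, with 3 UMIs in positive cells of rd10-vehicle and 4 in rd10-TMB.

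Genes that reactive astrocytes of several injuries share (12 pan-reactive genes, 11 compared) split into a high and a level set. In rd10-vehicle 5 of 11 were 2-fold or more higher, with a median of 0.33, and in rd10-TMB 6 of 11, with a median of 1.89. The latter median was 0.83 in cells with few photoreceptor UMIs, 1.5 in pairs within 10% of depth and 1.53 to 2.34 in the other settings. The medians lie far apart because the middle gene sits at the break between both sets. The 5 genes in rd10-vehicle were Gfap, Serpina3n, Steap4, Timp1 and Hspb1, and in rd10-TMB Cxcl10 joined them.

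Gfap was at 698 CPM in positive and 209 CPM in paired negative cells of rd10-vehicle (5197 against 1326 UMIs) and at 671 against 134 CPM in rd10-TMB (2724 against 477 UMIs). Its log2 ratios were 1.74 (1.65 to 1.83) and 2.33 (2.19 to 2.47). Vim, the intermediate filament that Müller glia make at rest, was far closer, at 1420 against 1126 CPM (0.33) and 1395 against 1072 CPM (0.38). Cd44, a hyaluronan receptor, was at 247 against 205 CPM (0.27) and 189 against 160 CPM (0.24).

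Serpina3n, a secreted serine protease inhibitor, was at 626 against 216 CPM (log2 ratio 1.53, 1.45 to 1.62) in rd10-vehicle and 512 against 138 CPM (1.89, 1.75 to 2.04) in rd10-TMB. Timp1, an inhibitor of matrix metalloproteases, was at 179 against 51.9 CPM (1.78) and 134 against 34.2 CPM (1.96). Hspb1, a small heat shock protein, was at 302 against 92.8 CPM (1.70) and 358 against 55.8 CPM (2.68). Steap4, a metalloreductase for iron and copper, was at 41.0 against 5.84 CPM (2.78, 2.32 to 3.34) and 33.5 against 6.16 CPM (2.39, 1.79 to 3.16). Serpina3n belongs to a family of near-identical copies, as do Ifitm3, C4b and Hist2h4, whose reads the counting could split.

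The ratios of these 6 genes stayed above 1 in cells with few photoreceptor UMIs. There C3 had log2 ratios of 3.92 in rd10-vehicle and 4.42 in rd10-TMB, Gfap of 1.80 and 2.93, Serpina3n of 1.76 and 2.40, Timp1 of 1.46 and 2.06, Hspb1 of 1.70 and 2.77 and Steap4 of 2.53 and 1.96. Among pairs within 10% of the same depth the ratios were 4.76 and 3.64 for C3, 1.72 and 2.18 for Gfap, 1.55 and 1.59 for Serpina3n, and 1.19 and 1.94 for Hspb1.

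The upstream sequences of Lcn2 and of 3 genes from this set are printed. The 3 genes were those of the windows examined that held a match to a motif below, so the choice says nothing about how often reactive genes hold one. Each is the 250 bases before the transcription start of the gene in RefSeq (GRCm38.p6), 5′ to 3′ on the strand of the gene, at chr2:32387740-32387989 for Lcn2 (minus strand), chr17:57228137-57228386 for C3 (minus), chr12:104406458-104406707 for Serpina3n (plus) and chr5:7960222-7960471 for Steap4 (plus). Capitals mark matches, on either strand, to the letters TTCNNNGAA (STAT), GGG, any 2 bases and TTTCC (NF-kB) or TTGCNNAAT (C/EBP).
Lcn2: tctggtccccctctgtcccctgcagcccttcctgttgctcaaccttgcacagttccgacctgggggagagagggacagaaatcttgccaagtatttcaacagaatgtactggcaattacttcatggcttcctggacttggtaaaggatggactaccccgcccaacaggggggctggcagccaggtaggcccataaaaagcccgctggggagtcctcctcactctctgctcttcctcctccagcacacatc
C3: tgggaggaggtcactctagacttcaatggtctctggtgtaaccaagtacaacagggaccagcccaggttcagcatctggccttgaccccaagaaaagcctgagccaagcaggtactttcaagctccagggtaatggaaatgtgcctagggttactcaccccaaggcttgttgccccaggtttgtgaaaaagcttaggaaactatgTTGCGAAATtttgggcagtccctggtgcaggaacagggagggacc
Serpina3n: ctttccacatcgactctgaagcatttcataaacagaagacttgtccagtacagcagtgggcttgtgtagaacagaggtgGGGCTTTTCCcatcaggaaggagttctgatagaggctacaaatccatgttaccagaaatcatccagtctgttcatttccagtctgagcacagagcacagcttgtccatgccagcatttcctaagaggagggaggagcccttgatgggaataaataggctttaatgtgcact
Steap4: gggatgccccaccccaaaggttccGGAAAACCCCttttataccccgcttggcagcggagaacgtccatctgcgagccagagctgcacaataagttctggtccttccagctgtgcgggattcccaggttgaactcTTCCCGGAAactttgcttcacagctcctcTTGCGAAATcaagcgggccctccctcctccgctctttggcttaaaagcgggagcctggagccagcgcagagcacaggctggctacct

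Upstream of C3 the C/EBP letters began 45 bases before the start, and upstream of Serpina3n the NF-kB letters began 171 bases before it. In front of Steap4 all of the 3 motifs were found without overlap, the STAT letters from 116 bases, the NF-kB letters from 226 and the C/EBP letters from 87 bases before the start. No match lay in the windows of Lcn2, Gfap or Timp1. Of the 107 genes higher in both libraries 82 were matched to 114 RefSeq promoters of this length, of which 8.77% held the STAT letters, 2.63% the NF-kB letters and 1.75% the C/EBP letters. The shares over all 32851 promoters were 7.02%, 1.41% and 2.11%. A match is a run of letters and not a binding site.

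Cytokine signalling genes were mostly close to level, with a median of 0.21 over 19 genes in rd10-vehicle and of 0.38 over 17 in rd10-TMB. The factors and receptors upstream of STAT3 included Il6ra, the interleukin-6 receptor chain, at 49 against 9 UMIs (log2 ratio 2.09) in rd10-vehicle and 26 against 7 UMIs in rd10-TMB. Cntf, a survival factor for photoreceptors, was at 181 against 96.6 CPM (0.91, 0.77 to 1.05) and 199 against 88.5 CPM (1.17, 0.98 to 1.36). Edn2, an endothelin that stressed photoreceptors are known to release, was at 76 against 34 UMIs (0.90) and 44 against 5 UMIs, the latter below the limit for comparison. By contrast Osmr, the oncostatin M receptor, was at 111 against 102 CPM (0.11) and 77.1 against 75.7 CPM (0.03), and Il6st, the shared gp130 chain, at 133 against 144 CPM (-0.11) and 131 against 136 CPM (-0.05). Stat3 had log2 ratios of 0.32 and 0.49, and Socs3, its target and inhibitor, of 0.19 and 0.31.

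NF-kB target genes had medians of 0.16 and 0.27 over 16 genes each, with 0 and 3 genes 2-fold or more higher. Interferon response genes had medians of 0.10 and -0.04 over 21 genes, and MHC class I genes of 0.17 and 0.10 over 14. Ifitm3, an antiviral membrane protein, was the 1 interferon gene past 2-fold in each library, at 891 against 336 CPM (1.40, 1.33 to 1.48) and 1010 against 334 CPM (1.59, 1.5 to 1.69). Isg20, an interferon-induced exonuclease outside that list, was at 112 against 27 UMIs or 15 against 4.26 CPM (1.78) and 15.8 against 3.92 CPM (1.93).

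The iron and lipocalin genes had medians of 0.08 and 0.15 over 15 genes, with Steap4 past 2-fold in both libraries and Slc39a14, a zinc and iron importer, in rd10-TMB (63 against 25 UMIs, 1.11). Slc22a17, a reported lipocalin-2 receptor, was at 84.9 against 94.2 CPM (-0.15) and 82.3 against 101 CPM (-0.29). The ferritin heavy chain Fth1 had log2 ratios of 0.10 and 0.08, and transferrin (Trf) of 0.48 and 0.68, at 1347 against 967 CPM and 1082 against 674 CPM. The metallothioneins Mt1 and Mt2, which bind zinc and copper, had ratios of 0.43 and 0.49 in rd10-vehicle and of 0.65 and 0.64 in rd10-TMB.

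Of 18 immediate early and AP-1 genes 0 in rd10-vehicle and 2 in rd10-TMB were 2-fold or more higher, with medians of 0.13 and 0.10. These 2 were Atf3, a stress-induced factor, at 1110 against 484 CPM in rd10-TMB (1.2) and 1173 against 652 CPM in rd10-vehicle (0.85), and Ier3, an inhibitor of apoptosis, at 740 against 359 CPM (1.04) and 547 against 313 CPM (0.80). Actin, annexin and S100 genes had medians of 0.35 and 0.49 over 19 genes. The actin-binding protein Tagln2 was at 144 against 60.0 CPM (1.26) and 112 against 49.0 CPM (1.18), and the calcium-binding protein S100a6 at 1826 against 1089 CPM (0.75) and 1793 against 896 CPM (1.0). Sgk1, a kinase induced by glucocorticoids, had a ratio of 1.12 in each library, although the glucocorticoid list it belongs to had medians of -0.14 and -0.33 over 9 genes.

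A further set among the highest ranks had no place in the lists of reactive genes, except Tm4sf1, which belongs to a list of reactive astrocyte genes. Efnb2, the membrane ligand ephrin-B2, was at 79.0 against 23 CPM (1.77, 1.51 to 2.05) in rd10-vehicle and 119 against 31.4 CPM (1.92, 1.63 to 2.24) in rd10-TMB. Crabp1, a retinoic acid binding protein, was at 151 against 37 UMIs (1.77) and 90 against 14 UMIs (2.42). Necab2, a neuronal calcium-binding protein, was at 218 against 68.3 CPM (1.67) and 322 against 81.3 CPM (1.98). Dio3os, a noncoding RNA at the Dio3 locus, was at 315 against 40 UMIs (2.71) and 154 against 20 UMIs (2.70).

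Lower counts stood behind the rest of that set. Brinp1, a neural protein induced by retinoic acid, had 137 against 29 UMIs (1.97) and 130 against 21 (2.39). C1ql1, a secreted synapse organiser, had 252 against 56 UMIs (1.92) and 154 against 23 (2.51). Col1a2, a chain of collagen I, had 159 against 32 UMIs in 97 and 26 cells (2.04) and 99 against 4 UMIs in 54 and 4 cells (4.14). Tm4sf1, a membrane protein of migrating cells, was found in 21 positive cells of rd10-vehicle (127 against 15 UMIs, 2.77) and 17 of rd10-TMB (62 against 10 UMIs, 2.33), where 34.7% of its UMIs came from 1 cell, and its ratio in rd10-TMB was -0.34 in cells with few photoreceptor UMIs.

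Efnb2 is known as a gene of the dorsal retina, and other genes of dorsal identity were therefore counted with lists drawn up after these values were seen. Of 7 dorsal genes compared 4 passed 2-fold upward in rd10-vehicle and 5 in rd10-TMB (medians of 1.28 and 1.25), and of 4 ventral genes none did in either library, with medians of 0.08 and 0.13. Nr2f2, a dorsal nuclear receptor, was at 91.9 against 28.4 CPM (1.69) and 115 against 36.4 CPM (1.65). Tbx5, a dorsal T-box factor, was at 194 against 55 UMIs (1.57) and 86 against 37 UMIs (1.01). Aldh1a1, the retinaldehyde dehydrogenase of the dorsal retina, was at 577 against 238 CPM (1.28, 1.19 to 1.36) and 698 against 253 CPM (1.46, 1.36 to 1.58). Vax2, a ventral homeobox factor, was at 77 against 109 UMIs (-0.73, -1.17 to -0.30) and 26 against 44 UMIs (-0.92, -1.70 to -0.21), and among pairs within 10% of depth at -0.30 and -0.14.

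Retinoid handling genes, also listed after the values were seen, had medians of 1.13 and 1.03 over 8 genes, with 4 past 2-fold higher in each library. Rdh10, which oxidises retinol, was at 269 against 204 CPM (0.40) and 325 against 197 CPM (0.72). Cyp26a1, which breaks down retinoic acid, was at 26.9 against 26.4 CPM (0.03) and 13.1 against 17.9 CPM (-0.45). In the cells with few photoreceptor UMIs, Aldh1a1 had ratios of 1.45 and 2.21 and Nr2f2 of 2.13 and 2.46.

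Photoreceptor transcripts made up another part of the higher genes. Of 12 rod markers 4 passed 2-fold upward in rd10-vehicle and 6 in rd10-TMB (medians of 0.78 and 0.96), and of 9 cone markers 5 and 7, with medians of 1.2 and 1.43. Recoverin (Rcvrn) was at 237 against 97.9 CPM (1.28) and 268 against 102 CPM (1.39), and the inhibitory subunit of the cone phosphodiesterase Pde6h at 133 against 40.9 CPM (1.70) and 216 against 65.8 CPM (1.71). The summed rod markers were at 2480 against 1366 CPM and 3018 against 1510 CPM, and the cone markers at 470 against 205 CPM and 719 against 266 CPM. In cells with few photoreceptor UMIs, a selection that acts on these very markers, Rcvrn was at -0.14 and 0.12 and Pde6h at 0.12 and 0.24. Whether these transcripts lay within the cells, stuck to them or were captured with them was not tested.

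Transcripts of secretory granules and synapses, in a list made after the data were seen, had medians of 0.80 over 9 genes and of 1.28 over 7. Chgb, a granule protein, was at 24.6 against 9.79 CPM (1.31) and 31.3 against 8.69 CPM (1.81), and the vesicle calcium sensor Syt1 at 82.9 against 36.3 CPM (1.19) and 105 against 37.0 CPM (1.5). Bipolar cell markers had medians of 0.51 over 8 genes and of 0.80 over 7, but with thinned cells these were -0.17 and 0.32, and the former was -0.036 in pairs within 10% of depth.

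Over all Lcn2-positive cells of each rd10 library the medians of the Müller glia homeostasis genes were below 0. None of these genes was 2-fold or more lower, while 0.388% of all genes compared were in rd10-vehicle and 0.628% in rd10-TMB. Of 21 genes compared in rd10-vehicle, 0 were past 2-fold either way and the median was -0.23. In rd10-TMB 1 of 20, Dpysl3, was 2-fold or more higher, 0 were 2-fold or more lower, and the median was -0.33, which was -0.16 without the 5% of cells with the most UMIs and -0.18 in pairs within 10% of depth. The enzyme Glul was at 4498 against 7415 CPM in rd10-vehicle (-0.72, -0.74 to -0.70) and 4740 against 8041 CPM in rd10-TMB (-0.76, -0.79 to -0.74). Rlbp1 was at 1534 against 2268 CPM (-0.56) and 1488 against 2312 CPM (-0.64).

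Among the other members of the list, none of those named here was past 2-fold. The lactate transporter Slc16a1 was at 83.4 against 153 CPM (-0.88) and 70.7 against 131 CPM (-0.88), the water channel Aqp4 at 944 against 1422 CPM (-0.59) and 825 against 1250 CPM (-0.60), and the potassium channel Kcnj10 at 138 against 197 CPM (-0.51) and 121 against 194 CPM (-0.68). The GABA transporter Slc6a11 had log2 ratios of -0.60 and -0.75, the carbonic anhydrase Car14 of -0.63 and -0.72, and the glutamate transporter Slc1a3 of -0.36 and -0.35. Apoe, the lipid carrier, was at 0.16 and 0.04. In the cells with few photoreceptor UMIs Glul had ratios of -0.63 and -0.49, Rlbp1 of -0.48 and -0.52 and Aqp4 of -0.54 and -0.50.

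Among transcription factors of Müller glia identity, 1 of 22 was past 2-fold in each library, with medians of -0.19 and -0.27. This was Hes5, a repressor induced by Notch (chr4:154960626-154962372 in GRCm38). It was at 221 against 552 CPM in rd10-vehicle (1648 against 3500 UMIs in 186 and 339 cells, -1.32, -1.40 to -1.23) and at 99.8 against 671 CPM in rd10-TMB (405 against 2394 UMIs in 96 and 181 cells, -2.75, -2.90 to -2.60). Positive cells held 15.2% of Hes5 UMIs of Cluster 0 in rd10-vehicle and 3.99% in rd10-TMB. The dominant-negative factor Id3 was at the upper end of the list, at 0.24 and 0.26.

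The remaining low ranks were mostly genes with few UMIs. Spc25, a kinetochore protein whose transcript is abundant in mouse Müller glia, had many, at 481 against 1059 CPM (-1.14, -1.2 to -1.08) and 434 against 1050 CPM (-1.27, -1.36 to -1.19). Etnppl, an enzyme of phosphoethanolamine breakdown, was at 79.5 against 168 CPM (-1.08) and 78.9 against 170 CPM (-1.11), and Shisal2b at 48.4 against 106 CPM (-1.12) and 65.8 against 197 CPM (-1.58). The peptidase Trhde was at 88 against 209 UMIs (-1.47) and 48 against 121 (-1.5), neuropeptide Npy at 38 against 82 (-1.32) and 29 against 98 (-1.91), and the circadian repressor Ciart at 60 against 164 (-1.67) and 112 against 263 (-1.41). Hist2h4, Shisa8, Cadps, Abca6, Syt10, Kctd8, Tff2 and Prkag3 completed the list, between -0.94 and -1.45 in both libraries. Over the settings tried, Shisal2b reached -0.44 and Cadps -0.56 in rd10-vehicle, and Npy -0.52 in rd10-TMB. Ciart and Trhde stayed past 2-fold in both libraries. Clock output genes had medians of -0.15 and -0.17 over 14 genes, with Ciart at the low end and Nfil3 at the high end (0.88 and 1.11), and cholesterol synthesis genes of -0.25 and -0.25 over 16.

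**Figure D3:**
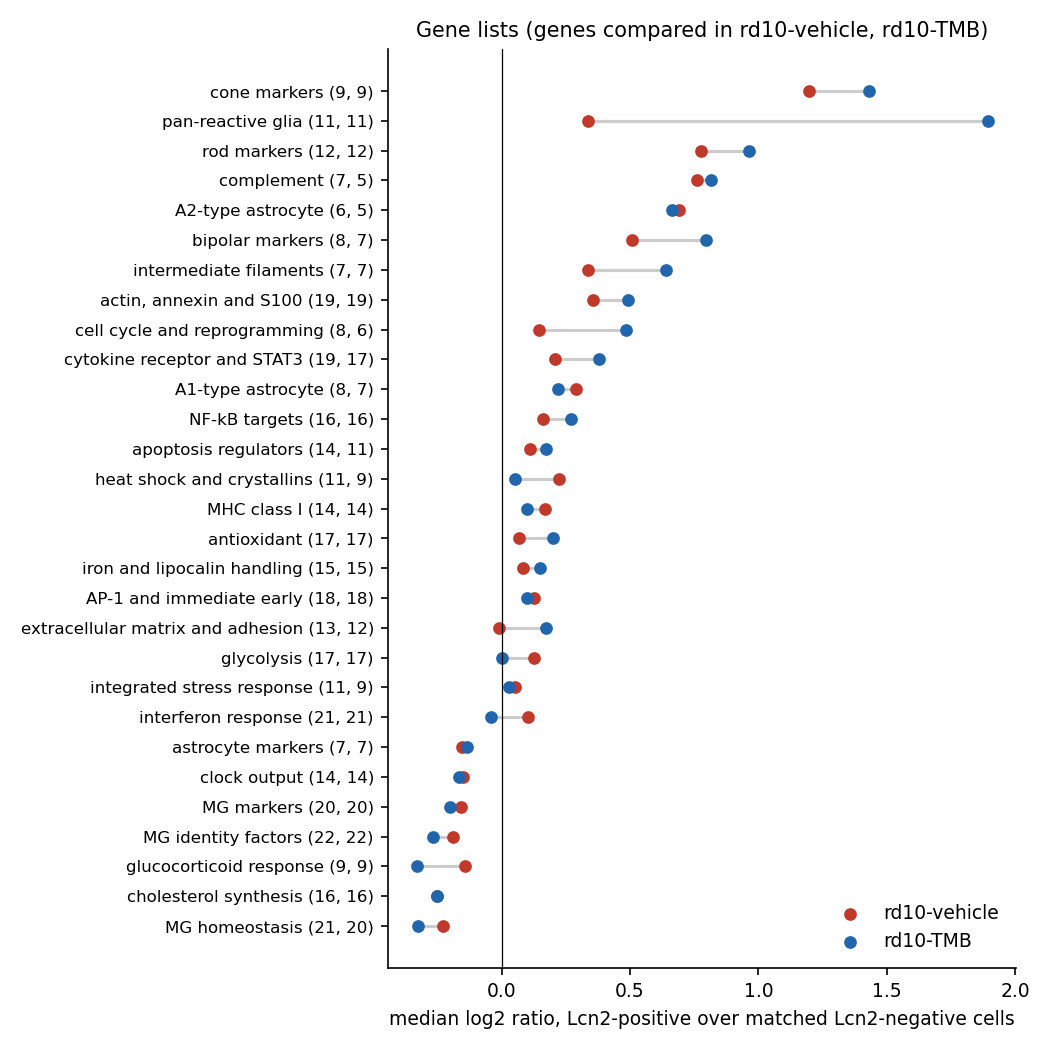
Median log2 ratio of Lcn2-positive over depth-paired Lcn2-negative Cluster 0 cells for gene lists with 5 or more genes compared, in rd10-vehicle and rd10-TMB, with the number of genes in brackets. Cone markers lie at 1.2 and 1.43, pan-reactive genes at 0.33 and 1.89, and Müller glia homeostasis genes at -0.23 and -0.33.

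Markers of the other cell types that a retinal sample can hold were counted in the same pairs. Of the 12 astrocyte markers 7 were compared, with medians of -0.15 and -0.13, and 1, Gfap, was 2-fold or more higher. Pax2, which marks retinal astrocytes, had 0 UMIs in all 962 positive cells, which allows a share of up to 0.312% of cells with a UMI. Summed microglia markers were at 27.1 against 21.0 CPM in rd10-vehicle and 29.6 against 30.8 CPM in rd10-TMB, and Cx3cr1 had 0 and 1 UMIs in positive cells. Neutrophils also make lipocalin-2, and the 2 of 10 neutrophil markers in the matrix had 1 UMI in the positive cells of each rd10 library, and 1 in the paired negative cells of rd10-TMB. In rd10-vehicle 5490 haemoglobin UMIs were found in positive cells, 5487 of them in 1 cell. Endothelial markers had medians of -0.19 over 3 genes and of -0.18 over 2. Summed amacrine cell markers were higher in positive cells, at 300.2 against 253 CPM in rd10-vehicle and 294 against 205 CPM in rd10-TMB, and 1 of 3 and 1 of 2 compared, C1ql1, was 2-fold or more higher. Cells with 0 UMIs of them made up 31.9% against 43.0% and 26.7% against 39.3%, and their part in the other values was not tested. Summed markers of the retinal pigment epithelium were lower, at 158 against 184 CPM and 177 against 213 CPM, and those of the lens had 157 against 165 and 79 against 87 UMIs.

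Pericyte markers, as a sum of 10 genes, were at 97.5 against 88.1 CPM in rd10-vehicle, 126 against 81.3 CPM in rd10-TMB (512 against 290 UMIs) and 14 against 3 UMIs in WT. Of 4 compared in rd10-vehicle 1 was 2-fold or more higher (median 0.11), and of 3 in rd10-TMB 2 were (median 1.19). Over the settings tried these medians ran from -0.27 to 0.91 in rd10-vehicle and from 0.64 to 1.52 in rd10-TMB. Vtn, the adhesion protein vitronectin, was at 53.6 against 23.5 CPM (1.18) and 63.8 against 27.7 CPM (1.19). Acta2, the smooth muscle actin, was at 43 against 36 UMIs (0.02) and 117 against 5 UMIs (4.11), with 35.2% of the latter in 1 cell. The receptor Pdgfrb was lower, at 33.2 against 54.0 CPM (-0.70) and 29.6 against 49.0 CPM (-0.73), and Rgs5 had 30 against 22 and 10 against 8 UMIs. Whether pericyte transcripts had a part in the values of Col1a2 above and of Tagln between the rd10 libraries was not tested.

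The profile was also described by the amount of Lcn2 in the cell, which is the value that chose the cells, so the classes are no independent support. Depth followed the classes too, with medians from 9096 to 11907 UMIs in rd10-vehicle and from 11025 to 14736 in rd10-TMB. Positive cells were split into those with 1, 2 to 4, 5 to 19 and 20 or more Lcn2 UMIs, holding 177, 142, 190 and 144 cells in rd10-vehicle and 99, 69, 76 and 56 in rd10-TMB. C3 had log2 ratios over paired negative cells of 0.68, 2.07, 2.86 and 4.08 in rd10-vehicle and of -0.68, 1.91, 1.87 and 3.78 in rd10-TMB, where the lowest class rests on 4 against 7 UMIs. For Gfap the ratios were 0.39, 1.25, 2.04 and 2.31, and 1.23, 1.74, 1.99 and 3.12. Those of Timp1 were -0.10, 0.97, 1.86 and 2.16, and -0.70, 1.75, 2.08 and 2.95. The order by Lcn2 class was the same for each of these in rd10-vehicle, while in rd10-TMB C3 was level between the middle classes.

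Glul went the other way, at -0.17, -0.52, -0.63 and -1.46 in rd10-vehicle and -0.17, -0.52, -0.88 and -1.59 in rd10-TMB. Rlbp1 was at -0.07, -0.49, -0.50 and -1.12, and at -0.21, -0.51, -0.80 and -1.15. Hes5 was at -0.37, -0.41, -1.98 and -2.39 in rd10-vehicle, and at -2.34, -1.99, -2.77 and -5.06 in rd10-TMB, where the highest class held 22 against 583 UMIs. In the highest class of both libraries Glul UMIs numbered 5881 against 12610 and 3346 against 7669. Glul was thus more than 2-fold lower there, which it was not in the positive cells taken as a whole.

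Cells with 1 Lcn2 UMI lie just inside the rule and their paired negative cells just outside it. In that class the 11 pan-reactive genes had medians of -0.0023 in rd10-vehicle and 0.19 in rd10-TMB, and the 7 dorsal genes of 0.71 and 0.90. The summed rod and cone markers were at 1767 against 1686 CPM and 2349 against 1817 CPM in that class. With 20 or more Lcn2 UMIs they were at 3549 against 2141 CPM and 4543 against 1527 CPM. Depth differed by at most 5.51% and 2.16% within pairs of the lowest class, but by up to 59.8% and 53.4% in the highest, and the part of depth and of photoreceptor UMIs in these series was not tested.

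**Figure D4:**
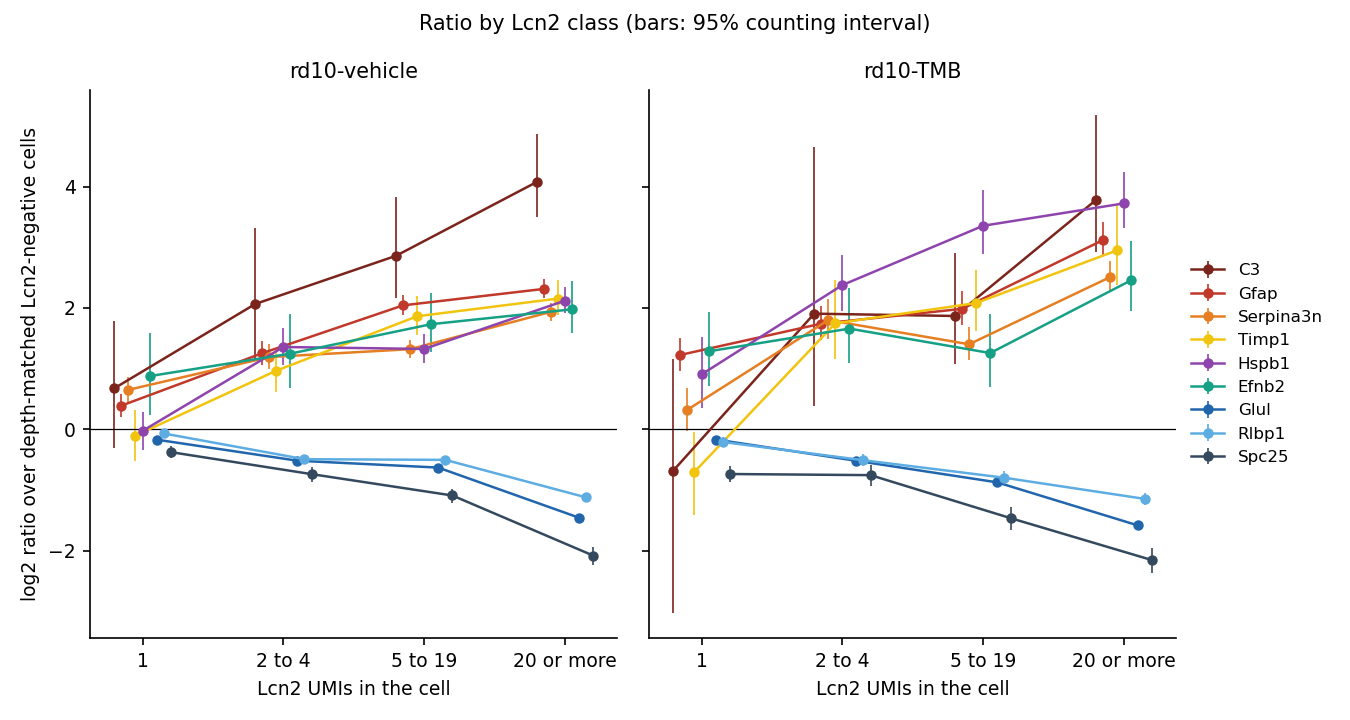
Log2 ratio over depth-paired Lcn2-negative cells for 9 genes in cells with 1, 2 to 4, 5 to 19 and 20 or more Lcn2 UMIs, in rd10-vehicle and rd10-TMB, with bars for the 95% counting interval. In cells with 20 or more Lcn2 UMIs C3 is at 4.08 and 3.78 and Glul at -1.46 and -1.59.

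Shares of cells with a UMI were compared at 3000 UMIs per cell, against bipolar-like cells of Cluster 2 as a class that should lack the glial genes. The background differed by gene, and Glul was found in 29.0% and 22.3% of thinned Cluster 2 cells, against 99.0% of positive cells in each rd10 library. In rd10-vehicle 630 positive and 1753 negative cells were deep enough (23 and 86 left out), and in rd10-TMB 294 and 1324 (6 and 124 left out). Gfap was found in 56.3% of positive, 20.5% of negative and 1.37% of Cluster 2 cells of rd10-vehicle, and in 45.9%, 10.2% and 1.78% of rd10-TMB. Unthinned, the Gfap shares were 71.1%, 32.8% and 2.19%, and 67.3%, 17.5% and 2.01%, at median depths of 10153, 8175 and 3638 UMIs and of 11722, 9064.5 and 4310 UMIs. Serpina3n was found in 59.4%, 24.0% and 4.44% of thinned cells of rd10-vehicle, and in 48.3%, 11.6% and 0.891% of rd10-TMB. C3 was found in 12.4% of positive and 1.14% of negative cells of rd10-vehicle and in 9.18% and 0.831% of rd10-TMB, with none in Cluster 2. For Hes5 the shares were 18.4% against 40.4%, and 17.3% against 44.5%, with 2.90% and 3.21% in Cluster 2.

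Several of these genes were found together in the same cells. At 3000 UMIs per cell, 3 or more of the 6 genes C3, Gfap, Serpina3n, Steap4, Timp1 and Hspb1 were found in 189 of 630 positive cells of rd10-vehicle (30.0%, 26.4 to 33.7) and in 84 of 1753 negative cells (4.79%, 3.84 to 5.90). In rd10-TMB the counts were 64 of 294 (21.8%, 17.2 to 26.9) and 20 of 1324 (1.51%, 0.925 to 2.32). None of the 6 was found in 99 positive cells of rd10-vehicle (15.7%) and 68 of rd10-TMB (23.1%), against 56.9% and 74.4% of negative cells. With 20 or more Lcn2 UMIs, 3 or more were found in 89 of 143 cells (62.2%) and 30 of 56 (53.6%). The 6 genes were taken from the ratios above, so their shares are a description of these cells. Whether they fell together more often than their single shares would give was not tested.

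The 9 Lcn2-positive cells of WT were paired with 9 negative WT cells, and their few UMIs give wide intervals. Serpina3n had 40 against 6 UMIs (log2 ratio 2.50, 1.44 to 4.21), of which 63.0% came from 1 cell, and Gfap 32 against 13 (1.18, 0.28 to 2.30). C3 had 9 UMIs against 0, in 2 cells with 88.9% in 1 of them, and Steap4 10 against 0. Ifitm3 had 115 against 40 UMIs (1.45, 0.94 to 2.03). Glul had 325 against 751 UMIs (-1.26, -1.45 to -1.07), Rlbp1 96 against 243 (-1.38, -1.75 to -1.05) and Spc25 33 against 167 (-2.36, -2.98 to -1.85). The summed rod markers were at 3394 against 1052 CPM, so rod transcripts moved with Lcn2 in WT cells too.

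The last comparison asked how Lcn2-positive cells differed between the treated and the untreated rd10 library. In positive cells 35 of 11062 genes were 2-fold or more higher in the treated rd10 library (0.316%) and 27 lower (0.244%). These counts moved with the setting, as given at the end, and in cells with few photoreceptor UMIs more genes were lower than higher. In Lcn2-negative cells 14 of 12344 were higher (0.113%) and 28 lower (0.227%). In this comparison the libraries, and not only the drugs, differ.

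Gfap was at 671 CPM in positive cells of rd10-TMB and 698 CPM in those of rd10-vehicle (log2 ratio -0.06, -0.12 to 0.01), while in negative cells it was at 79.5 and 159 CPM (-0.99, -1.10 to -0.89). Over all Cluster 0 cells its ratio was -0.61. Serpina3n was at 512 and 626 CPM in positive (-0.29, -0.37 to -0.22) and at 78.9 and 173 CPM in negative cells (-1.13, -1.24 to -1.03). Timp1 had ratios of -0.42 (-0.57 to -0.28) and -1.12 (-1.35 to -0.91), and C4b of -0.36 (-0.50 to -0.23) and -0.95 (-1.04 to -0.85). These intervals cover counting error alone, and the difference between all positive and negative cells was not tested. In cells with 1 Lcn2 UMI the ratios of Serpina3n (-1.06), Timp1 (-1.05) and C4b (-0.89) lay near those of the negative cells. With 20 or more Lcn2 UMIs Timp1 was at -0.61 and C4b at -0.11.

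Metallothionein Mt1 had ratios of -0.00099 in positive and -0.40 in negative cells, and Hspb1 of 0.25 and -0.47. For C3, Cd44 and Steap4 the intervals of the 2 sets of cells overlapped. C3 was at -0.57 (-0.80 to -0.36) in positive and -0.27 (-0.88 to 0.32) in negative cells, the latter from 42 against 59 UMIs. Cd44 was at -0.38 (-0.51 to -0.26) and -0.45 (-0.54 to -0.37), and Steap4 at -0.28 (-0.59 to 0.0064) and -0.27 (-0.84 to 0.27). Of the 11 pan-reactive genes none was past 2-fold in positive cells (median -0.20), and 3 were lower by that limit in negative cells (median -0.47), against medians of 0.00 and -0.02 over all genes. By Lcn2 class the ratio of Gfap was 0.10, 0.22, -0.29 and 0.04, and that of Serpina3n was -0.10, -0.39 and -0.07 in the classes above 1 Lcn2 UMI. The clock genes Ciart and Dbp had ratios of 1.76 and 0.98 in positive and of 1.60 and 0.68 in negative cells.

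By rank the highest genes in positive cells were Tagln (1.48), Cyp26b1 (1.38), Rsad2 (1.33), Opn1sw (1.15) and Fabp3 (1.07). Those of Tagln, Rsad2 and Opn1sw depended on the cells used. In cells with few photoreceptor UMIs Tagln was at 0.02 and Opn1sw at -1.03, and with thinned cells Rsad2 was at 0.78 and Opn1sw at 0.45. In rd10-TMB a single positive or paired cell held 40.7% of the Tagln UMIs, 36.5% of those of Rsad2 and 32.1% of those of Opn1sw. Cyp26b1, which breaks down retinoic acid, had 148 against 104 UMIs and a top cell of 7.11% in rd10-TMB. The lowest were Edn1 (-1.21), Hes5 (-1.15), Crybb3 (-1.04), Cyp26a1 (-1.02) and Kcna2 (-0.90). Over the settings tried Hes5 ran from -1.61 to -0.69, the latter in cells with few photoreceptor UMIs, and Cyp26a1 from -1.91 in those cells to -0.37 with thinned cells. Edn1, which encodes endothelin-1, was at 13.1 CPM in rd10-TMB and 30.6 CPM in rd10-vehicle. Hes5 was at 99.8 and 221 CPM in positive cells and, in negative cells, at 767 and 622 CPM (0.30, 0.26 to 0.34). The share of thinned positive cells with a Hes5 UMI was close in both libraries, at 17.3% in rd10-TMB and 18.4% in rd10-vehicle.

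**Figure D5:**
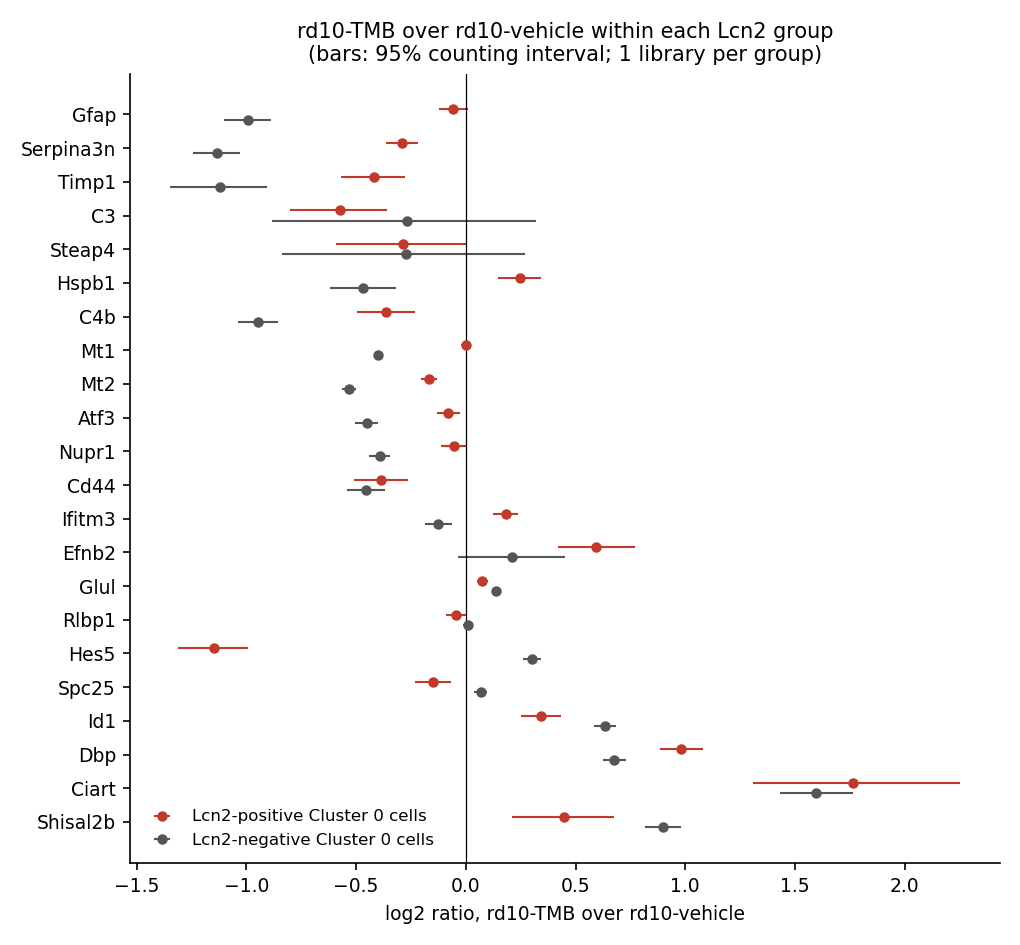
Log2 ratio of rd10-TMB over rd10-vehicle in Lcn2-positive and in Lcn2-negative Cluster 0 cells for 22 genes, with bars for the 95% counting interval and 1 library per group. Gfap is at -0.06 in positive and -0.99 in negative cells, and Hes5 at -1.15 and 0.30.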

How the data were processed

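Retinal cells of WT, rd10-vehicle and rd10-TMB mice were measured by 10x droplet single-cell RNA-seq, with 1 pooled library per group, so no test over cells was run. The authors aligned reads with Cell Ranger 6.0.1 to mm10, removed doublets with Scrublet, kept cells with at least 500 genes, and normalised, integrated (Harmony) and clustered them in Seurat 3.2.2. The deposited values were natural log normalised expression with a cluster for each cell, from which whole UMI counts were recovered for 32620606 of 32620606 values within 0.001. The deposited matrix held 18545 genes. No doublet caller was run again.

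Cells of Cluster 0 with 1 or more Lcn2 UMIs were paired, without replacement, with Lcn2-negative cells of the same library by total UMIs. UMIs were summed, scaled to 1000000 (CPM) and expressed as log2 ratios with a pseudocount of 1 UMI. Exact conditional intervals (95%) for ratios and Clopper-Pearson intervals for shares were computed in Python 3.11.15 with numpy 2.4.6, scipy 1.17.1 and pandas 2.3.3, and figures were drawn with matplotlib 3.10.9. A call was a 2-fold ratio in a gene with 50 or more UMIs and 10 or more cells with a UMI. On simulated counts for rd10-vehicle, 3-fold differences were called for 99 of 99 genes and 4-fold for 100 of 100, with 19 of 11151 unchanged genes called. For rd10-TMB the counts were 96 of 100, 100 of 100 and 10 of 9859. The simulated sums held counting error alone, without spread between cells or depth gaps within pairs. These rates therefore do not cover false calls from such spread or gaps. Named genes were the 15 highest and 15 lowest by their smaller ratio in the rd10 libraries, with 200 or more UMIs, the 5 highest and lowest of rd10-TMB over rd10-vehicle, and members of the lists with 50 or more UMIs in an rd10 library. Genes of the dorsal, ventral, retinoid and granule lists were added after values were seen. The members and lists were chosen with earlier results of these data known. No per-sample column was left unused. Results for some genes are not reported here.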

Additional observations from a re-analysis of the deposited data

Results flagged for a closer look

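Chosen because their direction was opposite between the rd10 libraries, 3 genes had log2 ratios of Lcn2-positive over paired negative cells as follows. Cxcl10, a chemokine, was at -0.48 in rd10-vehicle and 1.98 in rd10-TMB. Ccl2, another chemokine, was at -0.37 and 3.44, with 42.1% of its UMIs of rd10-TMB in 1 cell, and in rd10-vehicle it was at 0.64 with thinned cells and 0.30 in pairs within 10% of depth. Opn1sw, the short-wavelength cone opsin, was at -0.46 and 1.13, but at 0.02 and -0.79 in cells low in photoreceptor UMIs.

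For rd10-TMB over rd10-vehicle, 6 genes flagged for a closer look had opposite directions in Lcn2-positive and Lcn2-negative cells. They were not all the genes with opposite directions, since Hspb1 above was another. Hes5 was at -1.15 in positive and 0.30 in negative cells, Tagln at 1.48 and -0.95, and Rsad2 at 1.33 and -0.69. Opn1sw was at 1.15 and -0.41, Ccl2 at 0.95 and -2.69, and Pde6c, the catalytic subunit of the cone phosphodiesterase, at 1.02 and -0.47. In cells low in photoreceptor UMIs, Hes5 was at -0.69, Tagln at 0.02 and Opn1sw at -1.03 in positive cells, so that for Opn1sw the direction turned. These differences rest on 1 library per group and were not tested.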

How the results depend on the processing

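No paired analysis was possible because each group had 1 library. The 15 highest ranked genes kept their direction in 389 of 390 values over 13 settings and both rd10 libraries, and the 15 lowest in 390 of 390, while 384 and 305 stayed past 2-fold. Of the 107 genes higher in both libraries 68 were still so with negative cells reweighted by depth, 65 by the mean over cells, 45 of 54 still compared with thinned cells, 30 of 76 without the 5% deepest cells, 30 of 71 in pairs within 10% of depth and 21 of 32 in cells low in photoreceptor UMIs. Counts of calls depend on the filter and on depth.

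Low-photoreceptor cells, an alternative chosen after seeing the data, turned the direction of Rcvrn (-0.14) and Prph2 (-0.0071) in rd10-vehicle, of Tm4sf1 (-0.34), Opn1sw (-0.79), Krt18 (-0.18), Prph2 (-0.39) and Gnat2 (-0.014) in rd10-TMB, and of Opn1sw between libraries (-1.03). For the photoreceptor genes the setting itself selects on such transcripts, and for Tm4sf1 and Krt18 the cause was not tested. In these cells Lcn2 was found in 0.377% of WT, 18.1% of rd10-vehicle and 12.9% of rd10-TMB cells, and without the 5% of cells with the most UMIs in 23.5% of rd10-vehicle and 14.6% of rd10-TMB. Thinned, the shares were 18.6% and 11.9%, and with 2 or more UMIs 19.1% and 11.5%.

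Calls higher in rd10-vehicle numbered 379 with all negative cells, 129 without the deepest cells, 107 in pairs within 10% of depth (also chosen after seeing the data), 89 in low-photoreceptor cells, 416 at 20 UMIs, 87 at 200 UMIs, 1089 with no filter and 657 at 1.5-fold. In the same order they were 464, 92, 81, 77, 400, 81, 1244 and 678 in rd10-TMB, and 265, 31, 32, 29, 175, 47, 380 and 341 in both, with 65 in both by the mean over cells. Lower calls were 83, 27, 26, 25, 122, 15, 1053 and 342 in rd10-vehicle, and 70 with 2 or more Lcn2 UMIs. In both they were 36, 7, 8, 4, 28, 6, 260 and 117, and 23 with 2 or more Lcn2 UMIs. In rd10-TMB they were 147, 40 and 34 for the first 3 settings, 143, 14, 1238 and 373 for the last 4, and 103 with thinned cells.

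The pan-reactive median in rd10-vehicle was 0.39 with all negative cells, 0.38 thinned, 0.38 with 2 or more UMIs and 0.39 in pairs within 10%. In rd10-TMB it was 2.34 with all negative cells, 2.10 thinned, 1.53 without the deepest cells, 1.5 in pairs within 10% and 0.83 in low-photoreceptor cells. The homeostasis median in rd10-TMB was -0.16 without the deepest cells and -0.18 in pairs within 10%. For rd10-TMB over rd10-vehicle in positive cells, higher calls were 10 thinned, 53 by the mean over cells, 21 in low-photoreceptor cells, 5 at 200 UMIs and 212 at 1.5-fold, and lower calls 56, 55, 4 and 230 for the last 4 of these.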
